A study of Mus musculus with 6 samples.

Results

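The imprinted growth regulators described here are *H19*, *Igf2*, *Meg3*, *Rian*, *Mirg*, *Dlk1*, *Cdkn1c*, *Peg3*, *Grb10* and *Plagl1*, 10 genes picked by symbol from a table of estimated read numbers in mouse hind limb muscle. The table lists 20632 genes and holds 6 of the 10, namely *Igf2*, *Dlk1*, *Cdkn1c*, *Peg3*, *Grb10* and *Plagl1*. The noncoding RNAs *H19*, *Meg3*, *Rian* and *Mirg* matched neither by symbol nor by a RefSeq synonym and were not analysed here. Of the symbols in the table, 95.7% are protein-coding in RefSeq and 25 are among its 12731 long noncoding RNAs. Of the 6 members, 5 had enough reads for the test across genes, and *Dlk1* is described by its read numbers.

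The study asked what the loss of BAF155, a core subunit of the SWI/SNF chromatin remodelling complex encoded by *Smarcc1*, does in skeletal muscle. Libraries were made from 3 Baf155WT mice, which carry the floxed *Baf155* alleles (Baf155 f/f) without Cre, and from 3 Baf155ΔMF mice, which carry the same alleles with MCK-Cre. All 6 mice were 3 months old and unexercised, came from lines backcrossed to C57BL/6 by the labels (C57BL/6J and male in the study's methods), and gave 1 library each. RNA came from whole hind limb muscle, which combined the tibialis anterior, extensor digitorum longus, gastrocnemius, soleus and quadriceps. The muscle creatine kinase (MCK) promoter is active in skeletal and cardiac myofibers. The satellite cells, fibroblasts, vessels and immune cells of the same muscle should therefore keep BAF155, which was not measured by cell type. In RNA from whole muscle, fewer cells of a type and less RNA per cell cannot be told apart.

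Imprinted genes are expressed mainly from the copy inherited from a single parent, according to DNA methylation marks that were set in the germ line. Many of them act in opposition on fetal growth, and several are highly expressed in embryonic muscle and decline after birth. In muscle, *Igf2*, *Dlk1* and *Peg3* are best known from fetal growth and from muscle stem cells and regeneration. Read numbers per gene do not separate the maternal from the paternal copy, so the values below are sums over both.

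The total per mouse ranged from 8426022 to 12469335 estimated counts. Levels are CPM (counts relative to the library's total, scaled by TMM to a common size), as mean ± SD over 3 mice, and changes are Baf155ΔMF over Baf155WT from edgeR's quasi-likelihood test, with p adjusted over all 12116 genes tested. With 20 assignments of 6 mice to genotypes, the smallest p that exact permutation allows for 1 gene is 0.10. *Smarcc1*, the targeted gene, had 23.4, 19.5 and 17.0 CPM in Baf155WT mice and 7.05, 6.54 and 7.72 CPM in Baf155ΔMF mice (log2 fold change −1.49 ± 0.15 SE, adjusted p = 0.00907), so the labels held in all 6 mice, although the adjusted p was 0.0533 to 0.0678 when Baf155WT replicate 2 or Baf155ΔMF replicate 1 or 2 was left out. The sample titles begin with MS13, MS14 or MS15, which the labels do not explain. MS13 holds 1 Baf155WT and 2 Baf155ΔMF mice, MS14 holds 1 Baf155ΔMF mouse and MS15 holds 2 Baf155WT mice, so a comparison within a prefix is possible in MS13 alone. The 4 Y-linked transcripts checked (*Ddx3y*, *Uty*, *Kdm5d* and *Eif2s3y*) had reads in each of the 6 mice.

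Promoters are shown for *Grb10* and *Igf2*, the members with the largest difference in each direction, because both genes have several starts and the read numbers sum over them. The windows run from 250 bases before to 50 bases after a RefSeq start (GRCm38.p6), 5′ to 3′ on the gene's minus strand. Each CpG, the dinucleotide methylated in imprinting marks, is in capitals. Methylation was not measured, and the windows are not shown to be imprinting marks. *Grb10* start 1 is chr11:12037371-12037670, start 2 is chr11:12027922-12028221, *Igf2* start 1 is chr7:142666767-142667066 and start 3 is chr7:142658755-142659054.
Grb10 start 1: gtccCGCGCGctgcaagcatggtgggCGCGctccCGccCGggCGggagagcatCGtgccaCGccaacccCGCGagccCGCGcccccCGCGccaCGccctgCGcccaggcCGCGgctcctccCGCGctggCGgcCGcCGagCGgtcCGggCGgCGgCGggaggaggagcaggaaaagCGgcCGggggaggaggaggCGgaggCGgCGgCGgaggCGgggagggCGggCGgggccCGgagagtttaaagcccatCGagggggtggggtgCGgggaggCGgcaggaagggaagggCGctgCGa
Grb10 start 2: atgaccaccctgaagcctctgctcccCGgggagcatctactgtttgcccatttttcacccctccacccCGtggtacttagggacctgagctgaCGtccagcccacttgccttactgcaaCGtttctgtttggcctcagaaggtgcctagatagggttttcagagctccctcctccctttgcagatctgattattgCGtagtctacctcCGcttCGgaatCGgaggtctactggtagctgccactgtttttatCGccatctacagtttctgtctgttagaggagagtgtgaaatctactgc
Igf2 start 1: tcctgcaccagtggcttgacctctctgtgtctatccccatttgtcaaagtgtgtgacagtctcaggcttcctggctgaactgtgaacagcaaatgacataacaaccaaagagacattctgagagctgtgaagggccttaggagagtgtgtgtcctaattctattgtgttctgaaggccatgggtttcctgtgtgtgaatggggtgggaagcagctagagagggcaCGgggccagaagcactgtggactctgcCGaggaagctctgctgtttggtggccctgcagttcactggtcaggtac
Igf2 start 3: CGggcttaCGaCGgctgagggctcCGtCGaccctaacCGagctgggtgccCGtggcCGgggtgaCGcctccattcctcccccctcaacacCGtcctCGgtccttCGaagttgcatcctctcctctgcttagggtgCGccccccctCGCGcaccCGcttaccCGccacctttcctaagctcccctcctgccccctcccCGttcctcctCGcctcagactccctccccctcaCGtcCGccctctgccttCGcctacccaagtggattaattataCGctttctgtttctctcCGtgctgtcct

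*Grb10* start 1 holds 45 CpG and a GC content of 80.0%, and 98.1% of the 32851 RefSeq promoters hold fewer. Its start 2 holds 9. The 4 *Igf2* starts hold 2, 14, 24 and 7 CpG from the most upstream on, and starts 1 and 3 are printed as the lowest and the highest. Start 3 holds more CpG than 80.0% of promoters, where the median is 7. The study measured targets of HIF-1α, a transcription factor stabilized in hypoxia. The windows were therefore also searched on both strands for ACGTG, a form of the core of the hypoxia response element. The letters occurred in 3 of the 9 windows of the members counted (*Igf2* start 3, *Dlk1* and *Plagl1*; *Cdkn1c* had no window and was not searched) and in 19.6% of all promoters, and in neither *Grb10* window. Such a match is a description and not a site. Other forms of the core were not searched for.

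At an adjusted p under 0.05, 0 of the 5 members tested passed in either direction, where 0.0248% of all genes tested did (1 higher and 2 lower). At an unadjusted p under 0.05, 1 of 5 passed (*Grb10*, lower), where 7.95% of all genes tested did (406 higher and 557 lower). The genotypes did not overlap for 1 of 5, *Grb10* again, against 10.8% of all genes tested. The median log2 fold change of the 5 members was −0.06 and the median of its size was 0.105, and over all genes tested the corresponding values were −0.00 and 0.123. The median size of a difference among the members was under that of all genes, without a match for read number. With 5 genes, neither this median nor 1 gene of 5 can be set against the values of all genes.

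**Figure D1:**
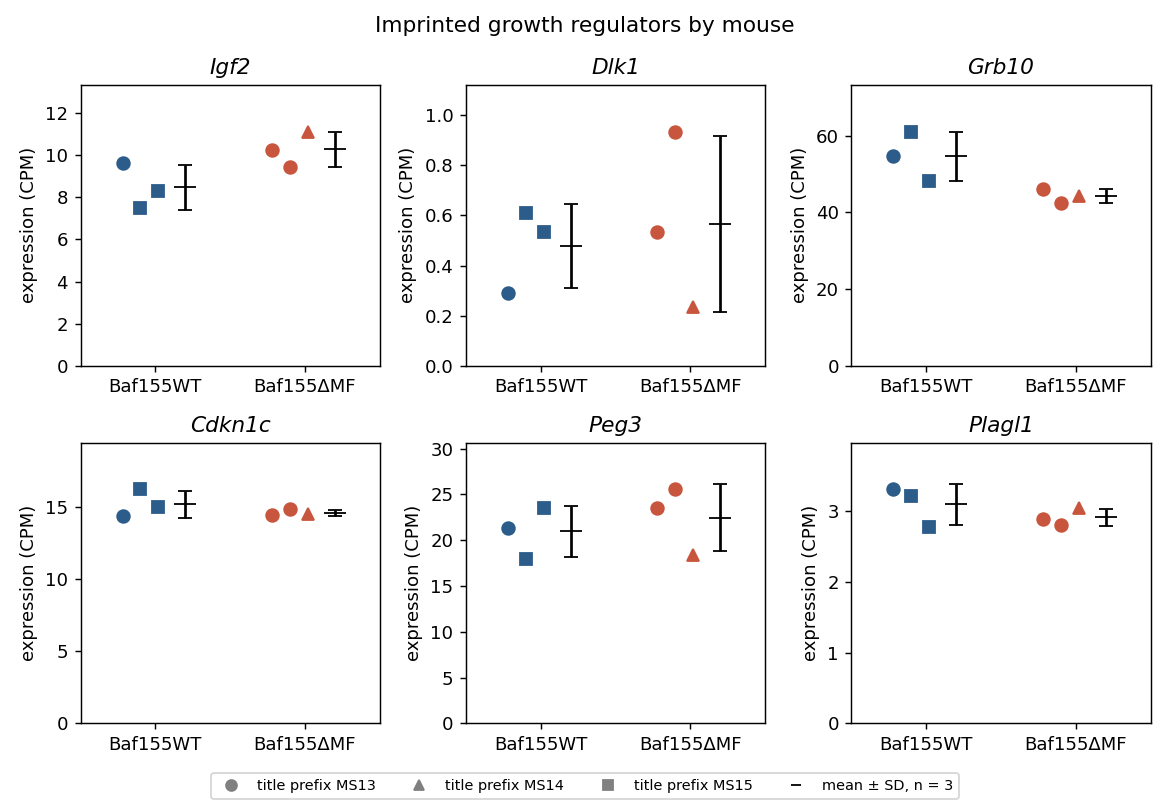
TMM-scaled CPM of the 6 members counted, in a panel each with its axis from 0, for every mouse (3 Baf155WT in blue, 3 Baf155ΔMF in red), with marker shapes for the title prefix and black bars for the mean ± SD of each genotype. The genotypes are apart for *Grb10* alone, where the Baf155ΔMF mice lie between 42.4 and 46.0 CPM and the Baf155WT mice between 48.2 and 61.1 CPM.

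Among the ligands, *Igf2* encodes insulin-like growth factor II, a paternally expressed growth factor that is abundant before birth. *Igf2* (chromosome 7, 142650766 to 142666816, minus strand, GRCm38) had 99, 98 and 93 counts in Baf155WT mice and 96, 91 and 95 counts in Baf155ΔMF mice, which are nearly the same numbers. The Baf155ΔMF libraries were smaller, and TMM scaling widened the difference further. These counts thus corresponded to 9.62, 7.50 and 8.30 CPM in Baf155WT mice and 10.3, 9.45 and 11.1 CPM in Baf155ΔMF mice. The means were 8.47 ± 1.07 and 10.3 ± 0.830 CPM, and the genotypes overlapped, since the Baf155WT mouse of MS13 had more than 1 of the Baf155ΔMF mice. The log2 fold change was 0.28 ± 0.14 (95% interval −0.04 to 0.60, adjusted p = 0.626), a difference of 21.5% that did not pass the test. With scaling by library size alone it was 0.22. Within MS13, which holds 1 Baf155WT mouse, the log2 ratio was 0.03. The fit with the title prefix as a covariate gave 0.03 from the same mice and is not a separate check. Without Baf155WT replicate 1, the MS13 mouse, the log2 fold change was 0.38 (adjusted p = 0.142). The genotypes then no longer overlapped, as for 39.3% of all genes in that fit. Reads that fall on *Gm49394*, *Mir483* and *Igf2os*, which overlap *Igf2* in GENCODE M21, cannot all be separated from it, *Igf2os* because the counting is not stated to use strand.

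*Dlk1* encodes a paternally expressed transmembrane protein of the Notch ligand family that restrains adipocyte differentiation, and it lies in the domain that also holds *Meg3*, *Rian* and *Mirg* (chromosome 12, 109452823 to 109463336, plus strand). It had 3, 8 and 6 counts in Baf155WT mice and 5, 9 and 2 counts in Baf155ΔMF mice, 33 in all. These numbers are close to the floor of 3 counts per library, and the mouse with 2 counts lies below it. Both genotypes thus spanned nearly the same range. Scaled to the library, the summed reads of Baf155ΔMF mice were 1.13 times those of Baf155WT mice (95% exact interval 0.533 to 2.37, counting error only). This interval leaves out the spread between mice, so differences beyond it could also have been missed at this depth.

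The signalling adaptor GRB10 binds the insulin and IGF1 receptors and dampens their signal, and it is expressed from the maternal copy in most tissues outside the nervous system. *Grb10* (chromosome 11, 11930508 to 12038683, minus strand) had 564, 798 and 540 counts in Baf155WT mice and 431, 408 and 379 in Baf155ΔMF mice. These were 54.8, 61.1 and 48.2 CPM in Baf155WT mice and 46.0, 42.4 and 44.3 CPM in Baf155ΔMF mice. Each Baf155ΔMF mouse lay below each Baf155WT mouse, with a gap between 46.0 and 48.2 CPM that is smaller than the SD of Baf155WT mice. The means were 54.7 ± 6.44 and 44.2 ± 1.83 CPM, and the log2 fold change was −0.31 ± 0.10 (95% interval −0.54 to −0.08), a difference of −19.2%. It did not pass the test across genes (adjusted p = 0.601). The log2 ratio was also −0.31 within MS13, and over the 15 alternative fits it lay between −0.39 and −0.22 with an adjusted p of 0.104 to 0.992. The unadjusted p was no longer under 0.05 without Baf155WT replicate 2 (log2 fold change −0.22) or without Baf155ΔMF replicate 2 (−0.28).

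The cell cycle inhibitor among the members is *Cdkn1c*, the maternally expressed gene of p57Kip2, which holds cyclin-dependent kinases in check when muscle precursors leave the cycle (chromosome 7, 143458339 to 143461050, minus strand). It had 14.4, 16.2 and 14.99 CPM in Baf155WT mice and 14.4, 14.8 and 14.5 CPM in Baf155ΔMF mice. The genotypes overlapped, with means of 15.2 ± 0.937 and 14.6 ± 0.230 CPM (log2 fold change −0.06 ± 0.11, 95% interval −0.30 to 0.18, adjusted p = 0.881). The mice differed little from each other: the coefficient of variation was 6.17% in Baf155WT and 1.57% in Baf155ΔMF mice, both under the 8.03% that counting error alone gives at this read number. *Gm44732* overlaps *Cdkn1c* on the opposite strand.

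*Peg3* and *Plagl1* encode paternally expressed zinc finger proteins, of which PEG3 is used as a mark of interstitial and satellite cells in muscle and PLAGL1 is a transcription factor that restrains proliferation and regulates other imprinted genes. *Peg3* (chromosome 7, 6703892 to 6730431, minus strand) had 21.4, 18.0 and 23.6 CPM in Baf155WT mice and 23.5, 25.5 and 18.4 CPM in Baf155ΔMF mice. Its genotypes overlapped across almost the whole range (log2 fold change 0.10 ± 0.14, 95% interval −0.21 to 0.42, adjusted p = 0.843). Its log2 fold change was 0.01 without Baf155WT replicate 2, 0.0026 without Baf155ΔMF replicate 2 and 0.23 without Baf155ΔMF replicate 3, where the genotypes no longer overlapped, as for 28.8% of all genes in that fit. *Plagl1* (chromosome 10, 13060504 to 13131694, plus strand) had 34, 42 and 31 counts in Baf155WT mice and 27, 27 and 26 counts in Baf155ΔMF mice, which were 3.30, 3.21 and 2.77 CPM and 2.88, 2.80 and 3.04 CPM. These genotypes overlapped as well (log2 fold change −0.09 ± 0.21, adjusted p = 0.907), and the 95% interval of −0.55 to 0.36 is the widest among the 5 members tested. *Plagl1* is also the lowest of these 5, so its data leave the size of a change least determined.

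To set the members in order of level, CPM was divided by the length of the principal transcript in GENCODE M21. In Baf155WT mice *Grb10* had 10.8 ± 1.27 CPM per kilobase and *Cdkn1c* 7.99 ± 0.493 CPM per kilobase. *Peg3* followed with 2.41 ± 0.323 and *Igf2* with 2.13 ± 0.270 CPM per kilobase. *Plagl1* (0.588 ± 0.0547) and *Dlk1* (0.103 ± 0.0359 CPM per kilobase) were lowest. Each step of this order held within 6 of 6 mice, apart from *Peg3* over *Igf2*, which held in 5 of 6 and whose levels overlapped between mice. *Grb10* and *Cdkn1c* were thus above the other 4 members counted in all 6 mice. The lengths assume a single transcript per gene, and other transcripts of the same gene would move these values.

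**Figure D2:**
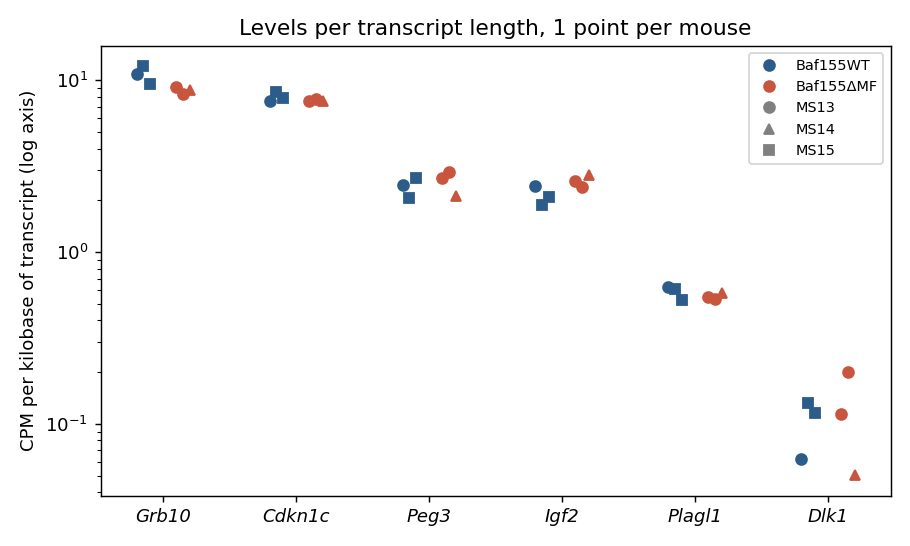
CPM per kilobase of the principal transcript (log axis) for the 6 members counted, with a point per mouse in both genotypes and the members sorted by their mean in Baf155WT mice. The levels span from *Grb10*, at 9.52 to 12.1 CPM per kilobase in Baf155WT mice, to *Dlk1*, at 0.0626 to 0.131, and in *Peg3* and *Igf2* the points overlap.

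Other genes of the imprinted domains that hold the members were listed as neighbours, 19 in number, of which 9 could be tested. Of these 0 had an adjusted or an unadjusted p under 0.05, and their median log2 fold change was −0.07. The genotypes did not overlap for 2 of 9, against 10.8% of all genes tested, and 9 genes are too few to set against that share. *Zim1*, the maternally expressed neighbour of *Peg3*, had 3.48 ± 0.114 CPM in Baf155WT and 4.26 ± 0.305 CPM in Baf155ΔMF mice (adjusted p = 0.666), and *Tssc4*, from the *Cdkn1c* domain, had 6.77 ± 0.477 and 5.40 ± 0.145 CPM (adjusted p = 0.622). *Rtl1*, the paternally expressed retrotransposon-derived neighbour of *Dlk1*, had 9, 11 and 18 counts in Baf155WT and 24, 19 and 9 counts in Baf155ΔMF mice. It had the largest log2 fold change of the neighbours, 0.76 with a 95% interval of −0.10 to 1.63 (adjusted p = 0.627), and the genotypes overlapped. The remaining genes of the *Dlk1* domain in the table were as low as *Dlk1*, with 19 counts over the 6 mice for *Dio3* and 14 for *Begain*. The most abundant neighbours, *Nap1l4*, *Cd81* and *Phactr2*, had log2 fold changes of −0.07, −0.09 and 0.13.

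Of 26 other imprinted genes, 19 could be tested, and 0 of them had an adjusted or an unadjusted p under 0.05 or genotypes that did not overlap. The most abundant were *Gnas*, the gene of the stimulatory G protein subunit (586 and 577 CPM), *Igf2r*, and the amino acid transporter gene *Slc38a4* (162 CPM in both genotypes). Several genes of these lists, among them *Gnas*, *Igf2r* and *Ube3a*, are imprinted in only some tissues, and some neighbours are not imprinted. Over the members, the neighbours and the other imprinted genes together, 33 were tested, and *Grb10* was the only 1 with an unadjusted p under 0.05. Of all genes tested, 7.95% had such a p and 10.8% had genotypes that did not overlap.

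**Figure D3:**
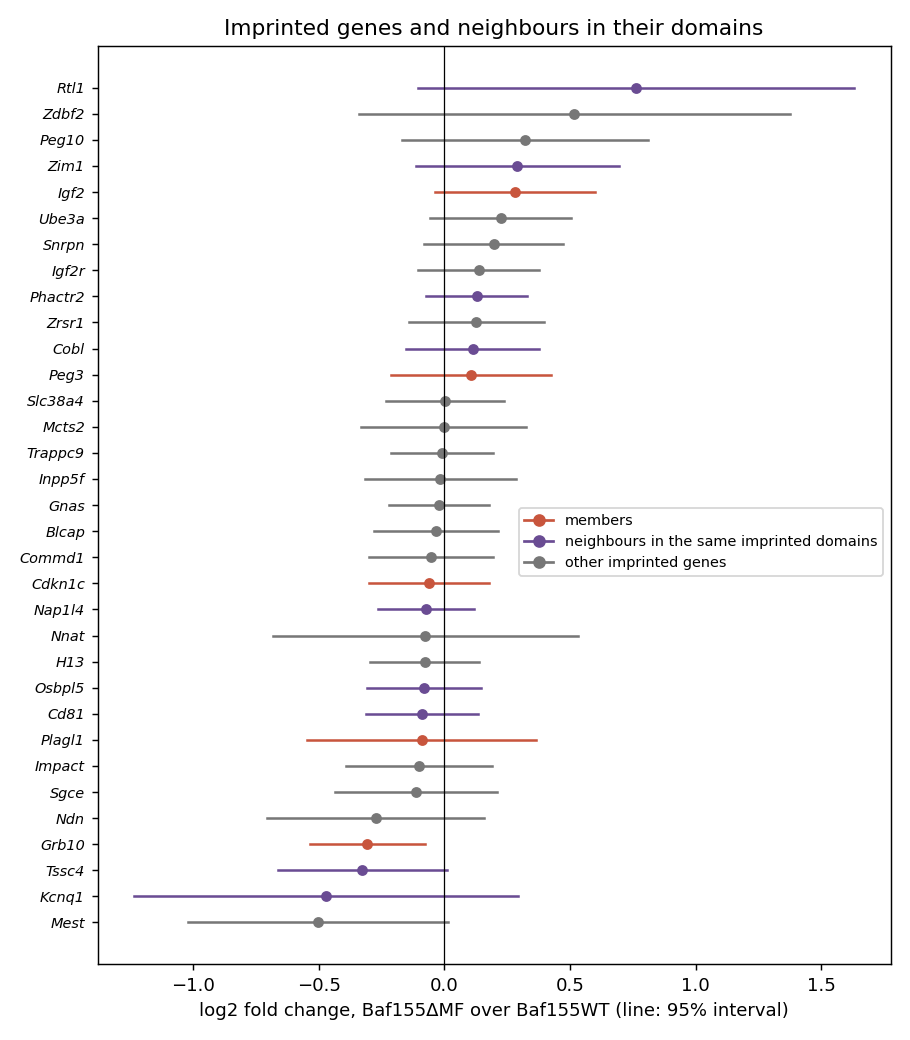
Log2 fold change (Baf155ΔMF over Baf155WT, 3 mice each) of the 33 genes tested among the members, their domain neighbours and other imprinted genes, sorted by value, with lines for the 95% interval of the quasi-likelihood fit. The interval of *Grb10*, from −0.54 to −0.08, is the only 1 that does not cross 0, and *Rtl1* has the largest value, 0.76.

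IGF-II acts through the IGF1 and insulin receptors, is cleared by the *Igf2r* product and is carried by IGF binding proteins. Of 16 genes of this system, 13 were tested, with 0 past the adjusted limit of 0.05 and a median log2 fold change of −0.14. At an unadjusted p under 0.05, 0 were higher and 2 lower, where 7.95% of all genes tested passed (406 higher and 557 lower). These 13 genes are too few to set against that share. *Igf2r* had 167 CPM in Baf155WT and 184 CPM in Baf155ΔMF mice (log2 fold change 0.14, adjusted p = 0.716). The binding protein genes *Igfbp4* and *Igfbp6* were the 2 lower genes, with log2 fold changes of −0.46 and −0.44 (adjusted p = 0.601 for both), against −0.11 and −0.33 within MS13. Of the 5 fibroblast markers, *Dcn* (−0.43) and *Lum* (−0.41) were lower at an unadjusted p under 0.05. Their log2 ratios within MS13 were −0.16 and −0.01. The other fibroblast markers did not pass this limit, with *Pdgfra* lower (−0.26) and *Col1a1* (0.36) and *Col3a1* (0.31) higher. The part of fibroblasts in the values of *Igfbp4* and *Igfbp6* was not tested. *Igfbp5*, the most abundant gene of the list, had 531 and 546 CPM. *Irs1*, which encodes the docking protein below the insulin and IGF1 receptors, had 230 and 200 CPM, without overlap between genotypes (log2 fold change −0.20, adjusted p = 0.627). It was the only 1 of the 13 without overlap, against 10.8% of all genes tested.

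Imprints are kept by DNA methyltransferases and by zinc finger proteins with TRIM28, and TET enzymes oxidize methylated cytosine. Of 14 such genes, 11 were tested, with 0 past the adjusted limit of 0.05. On the unadjusted scale, with p under 0.05, 2 were higher and 0 lower, where 7.95% of all genes tested passed (406 higher and 557 lower). The log2 fold change was above 0 for 11 and below 0 for 0, with a median of 0.10. Over all 12116 genes tested, 6033 were above 0. The genotypes did not overlap for 1 of 11 (*Tet1*, higher), against 10.8% of all genes tested. These 11 genes are too few to set against these shares. *Dnmt3a*, a methyltransferase gene and the most abundant of the list, had 60.8 and 69.7 CPM (log2 fold change 0.20, adjusted p = 0.622), *Trim28* had 51.2 and 51.3 CPM, and *Zfp445* had a log2 fold change of 0.05. The 2 higher genes were *Tet1* (log2 fold change 0.42, adjusted p = 0.617) and *Tet3* (0.41, adjusted p = 0.611), but within MS13 the log2 ratio was 0.56 for *Tet1* and −0.01 for *Tet3*.

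Markers of the cell types of whole muscle were summed in each mouse beside these values. The 5 macrophage markers summed to 70.9, 186 and 155 CPM in Baf155WT mice and 63.7, 63.5 and 100 CPM in Baf155ΔMF mice, and 5 of 5 were lower at an unadjusted p under 0.05. The 5 endothelial markers summed to 266, 206 and 213 CPM in Baf155WT and 268, 289 and 265 CPM in Baf155ΔMF mice, and 2 of 5 were higher at an unadjusted p under 0.05. Over all genes tested the share with such a p was 7.95%, in either direction. Macrophage *Cd163* (log2 fold change −0.81), endothelial *Kdr* (0.41), adipocyte *Adipoq* (−0.86) and the fast myosin gene *Myh1* (0.49) had an unadjusted p under 0.01, each with an adjusted p of 0.601. In the macrophage and endothelial lists the Baf155WT mouse of MS13 lay with the Baf155ΔMF mice and the MS15 mice apart from them. The MS15 mice were likewise apart from all other mice in the adipocyte, tenocyte, myofiber, and pericyte and smooth muscle lists. *Igf2* shows the same division, with its lowest values of 7.50 and 8.30 CPM in the 2 MS15 mice, whereas for *Grb10* the Baf155WT mouse of MS13 (54.8 CPM) lay between those of MS15 (48.2 and 61.1 CPM). The satellite cell markers summed to 33.7 to 35.8 CPM in Baf155WT and 32.8 to 36.6 CPM in Baf155ΔMF mice, and the adult myofiber markers to 64840 to 73987 and 61723 to 66271 CPM. None of these lists was at 0 in any mouse, and the part of other cell types in the values of the members was not tested.

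**Figure D4:**
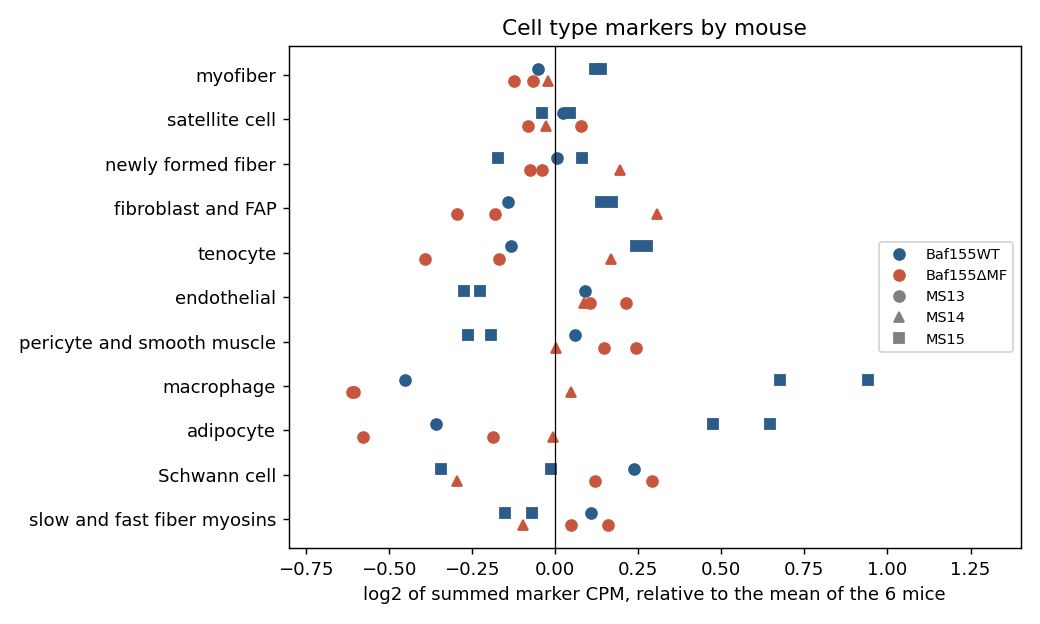
Summed CPM of each list of cell type markers in each mouse, as log2 relative to the mean of the 6 mice, with colours for genotype and shapes for the title prefix. The 2 MS15 mice, with macrophage sums of 186 and 155 CPM, stand to the right of the other 4 mice for macrophages, adipocytes, tenocytes and myofibers. They stand to the left for endothelial cells and for pericytes and smooth muscle.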

How the data were processed

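Total RNA libraries (TruSeq Stranded Total RNA, HiSeq sequencer) were made by the authors from 6 mice. The authors deposited expected counts (RSEM-type estimates of the reads of each gene, not normalized) in 1 table, and the submitters' processing notes name CASAVA 1.8.2, cutadapt 1.10, Bowtie2 2.2.7, TopHat2 2.1.1, RSEM 1.2.30, limma and mm10, without giving their order. The annotation and the strand setting of the counting are not given in the sources used here. Estimates were fractional for 2919 genes (14.1%) and were rounded.

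Genotypes were compared in R 4.3.3 with edgeR 4.0.16 by TMM scaling, filterByExpr (minimum count 10, minimum total 15) and the quasi-likelihood F test, which kept 12116 genes, with Benjamini-Hochberg adjustment over them. TMM factors ran from 0.958 to 1.05, and 3 counts served as the floor. The other fits tried were limma-voom (limma 3.58.1), DESeq2 1.42.0, a robust fit, further filters and scalings, a term for the title prefix, and fits without each mouse in turn. The MS13 values were added after seeing the data. The main edgeR fit alone was tested on simulated counts, which held no differences between title prefixes. The error after a log2 fold change is its SE, and the intervals cover the spread between mice except where counting error is named. Coordinates came from GENCODE M21 (GRCm38) and promoters from RefSeq. The members and gene lists were chosen with earlier results of these data known. From each list of imprinted, IGF and imprint maintenance genes the 3 most abundant were named, and from these and the marker lists each gene with an unadjusted p under 0.01. *Zim1*, *Tssc4*, *Rtl1*, *Dio3*, *Begain*, *Igfbp4*, *Igfbp6*, *Tet1*, *Tet3* and the fibroblast markers *Dcn*, *Lum*, *Pdgfra*, *Col1a1* and *Col3a1* were named after their values were seen.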

Additional observations from a re-analysis of the deposited data

How the results depend on the processing

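Over the 15 alternative fits, the number of members with an adjusted p under 0.05 stayed 0 in each. *Grb10* remained lower in Baf155ΔMF mice in all 15, and its unadjusted p was under 0.05 in 13, the exceptions being the fits without Baf155WT replicate 2 and without Baf155ΔMF replicate 2. *Cdkn1c* turned to a log2 fold change of 0.0251 with a term for the title prefix, where the MS13 mice alone inform the genotype difference. Its log2 ratio within MS13 was 0.0250, from the same mice and without a test. Leaving out each mouse gave 0 to 2 members with an unadjusted p under 0.05, the second being *Igf2* without Baf155WT replicate 1, where 23.8% of all genes tested had such a p (3.69% to 10.2% without another mouse). It gave 1 to 3 members without overlap, *Grb10* in each case, against 16.2% to 39.3% of all genes, with both highest values again without Baf155WT replicate 1. For *Smarcc1* the log2 fold change then lay between −1.59 and −1.36, and its adjusted p was 0.0616 without Baf155WT replicate 2, 0.0533 without Baf155ΔMF replicate 1 and 0.0678 without Baf155ΔMF replicate 2. Scaling by library size alone moved the median of all genes by −0.06 (log2). The genes tested that passed an adjusted p of 0.05, 3 in the reported fit, were 22 with DESeq2, 5 with voom, 17 without a filter, 16 with the title prefix and 0 to 955 when 1 mouse was left out (955 without Baf155WT replicate 1, the Baf155WT mouse of MS13, 7 without Baf155WT replicate 3, 1 without Baf155ΔMF replicate 1, and 0 without replicate 2 of either genotype). No paired analysis was possible because the numbers in the titles name mice within a prefix and only MS13 occurs in both genotypes. The planned ratios of *H19*, *Meg3*, *Rian* and *Mirg* to their neighbours were not run. Depth limits *Dlk1* and *Plagl1* most.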
